A study of Mus musculus with 6 samples.

Results

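The genes read here are those of cholesterol and fatty acid synthesis that are targets or regulators of the sterol regulatory element binding proteins (SREBPs). They were 32 genes named in a fixed list, and their probes were found through the RefSeq accession that the scanner files give for each probe. Of the 32 genes, 31 had a probe, out of 23462 genes named on the array, and 26 gave a value in the comparison. RNA came from TM3, a mouse cell line described in the labels as testicular somatic cells and derived from Leydig cells, the androgen-producing cells of the testis. Cells of 1 group were exposed to 10 µM 4-nitrophenol (PNP), a nitrated phenol found in diesel exhaust and formed from the insecticide parathion, for 24 h, and cells of the other group had 0 µM and no other agent named in the labels. Each group held 3 samples, each on its own 1-channel Agilent array. Nothing in the labels says whether replicates were grown as separate cultures. The p-values therefore reflect how far the 3 arrays of a group differ, and that spread could be technical.

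SREBPs are made as membrane proteins of the endoplasmic reticulum. When sterols are scarce, the escort protein SCAP carries them to the Golgi, where proteases release the part that enters the nucleus and turns on genes of lipid synthesis. When sterols are plentiful, INSIG proteins hold SCAP in place and expression of these genes falls. SREBP-2, from Srebf2, acts mainly on cholesterol genes and SREBP-1, from Srebf1, mainly on fatty acid genes. In Leydig cells cholesterol is the raw material of androgen synthesis.

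All 6 arrays lay on 1 slide and came from 1 scan. From 59.9% to 62.6% of the spots on an array were well above background, and no spot was saturated. Of the markers of Leydig cells with a probe, 3 of 9 (Star, Nr5a1 and Scarb1) were well above background on every array, and 4 of 9 (Cyp11a1, Lhcgr, Hsd3b6 and Hsd17b3) on none. Among markers of other cells, those well above background on every array were 4 of 8 for Sertoli cells, 4 of 8 for germ cells, 6 of 6 for peritubular myoid cells, 5 of 7 for macrophages and leukocytes (Ptprc and Adgre1 on none), 0 of 5 for endothelium and 2 of 5 for adipocytes. Only some of these markers could be tested with limma: 4 for Leydig cells, 4 for Sertoli cells, 3 for germ cells and 5 for peritubular myoid cells. Of the others, 5 were tested for macrophages and leukocytes, 1 for endothelium and 2 for adipocytes. None of the tested markers passed, as 0 of 13138 genes did. All 31 members with a probe were well above background on all 6 arrays, as were 62.5% of the genes named on the array. Values below are scaled log2 signals: the log2 of the processed signal minus the 75th percentile of its array, so that 0 is a bright probe and each unit is a doubling. The level of 1 gene is not set against that of another, since probes differ in brightness for reasons other than the amount of RNA.

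No member passed the test between PNP and control. With limma and Benjamini-Hochberg adjustment, 0 of 26 members had an adjusted p below 0.05, against 0 of 13138 genes (0%), and the members' adjusted p-values ran from 0.740 to 0.997. At an unadjusted p below 0.05 there was 1 member, Acly, or 3.85%, against 856 genes (6.52%). Acly was higher with PNP, as were 5.02% of all genes at that p. The fitted differences, PNP minus control, ran from -0.27 for Hsd17b7 to 0.34 for Acly, which as folds is 0.827 to 1.27. For 24 of 26 members the 95% interval excluded a change of 1.5-fold either way, against 84.4% of all genes, and the exceptions were Fdps and Hsd17b7. The plot of differences shows each member with its interval beside the median of all genes.

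**Figure D1:**
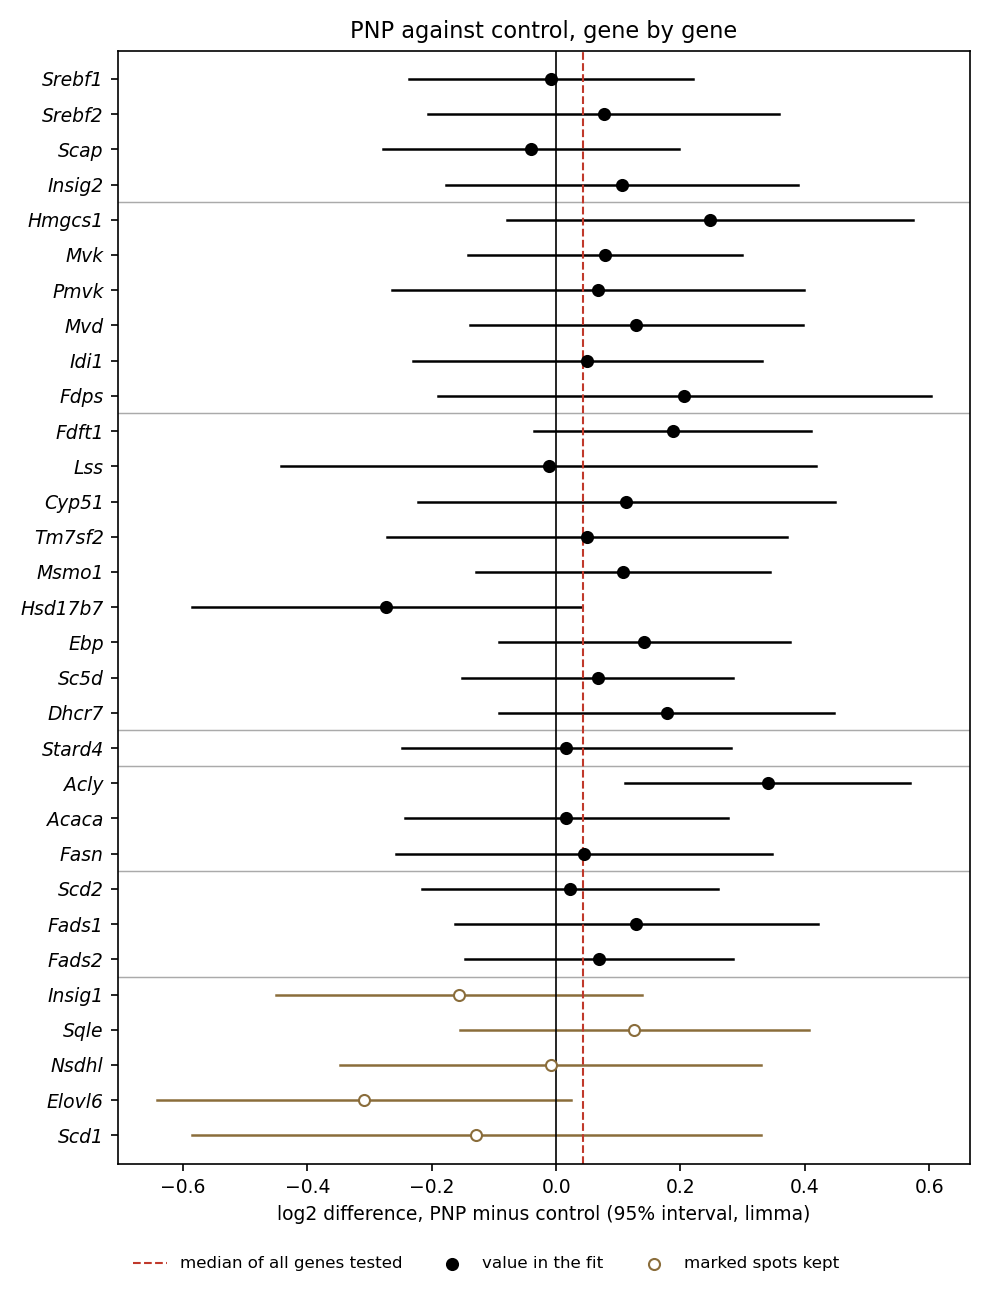
Log2 difference between PNP and control for each member (x axis, scaled log2 signal, limma, 95% interval), in the order of the members' roles. Filled points are the 26 members in the fit, open points are 5 members whose spots were marked as outliers and kept, and the dashed line is the median of all genes, 0.04. Every interval of the 26 but that of Acly spans 0.

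The promoters are shown because SREBPs are known to bind a short element next to NF-Y, a factor that binds the CCAAT box. Apart from the choice of Hsd17b7 for printing, they were not set against the array values. RefSeq promoter windows (build GRCm38.p6) were matched for 25 of the 32 members, all but Fdps, Fdft1, Sqle, Stard4, Scd1, Scd2 and Fads1. The 250 bases before each gene start were searched on both strands. The box CCAAT was present for 19 of 25 members (76%), against 37.5% of all genes in the table. The core of the sterol regulatory element, written TCACNCCA with N for any base, was present for 3 of 25 members (12%), against 4.2% of all genes. A match is a run of letters and not a site shown to be bound. The windows of those 3 members, and that of Hsd17b7, are printed in lower case with both motifs in capitals. Hsd17b7 was the member with the lowest difference among the 26 in the fit. ATTGG is CCAAT on the other strand. No match of 1 motif overlapped a match of the other in these windows.
Hmgcs1, chr13:119690101-119690350, plus strand: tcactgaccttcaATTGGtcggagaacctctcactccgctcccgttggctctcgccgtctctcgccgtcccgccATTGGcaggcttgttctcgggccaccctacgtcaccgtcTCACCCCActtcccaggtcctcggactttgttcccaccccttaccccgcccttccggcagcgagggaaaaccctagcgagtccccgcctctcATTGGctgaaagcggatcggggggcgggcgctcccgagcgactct
Srebf2, chr15:82147019-82147268, plus strand: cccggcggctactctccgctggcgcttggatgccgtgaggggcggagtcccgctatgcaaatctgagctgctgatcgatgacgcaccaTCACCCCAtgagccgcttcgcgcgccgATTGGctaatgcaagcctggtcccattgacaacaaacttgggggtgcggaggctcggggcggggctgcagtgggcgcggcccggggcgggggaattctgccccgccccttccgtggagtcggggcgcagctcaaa
Msmo1, chr8:64733579-64733828, minus strand: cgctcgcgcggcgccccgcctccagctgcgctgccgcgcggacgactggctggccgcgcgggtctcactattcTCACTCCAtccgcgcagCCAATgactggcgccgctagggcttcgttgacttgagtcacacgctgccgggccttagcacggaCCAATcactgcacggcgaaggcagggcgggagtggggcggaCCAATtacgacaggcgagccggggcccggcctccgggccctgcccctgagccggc
Hsd17b7, chr1:169969206-169969455, minus strand: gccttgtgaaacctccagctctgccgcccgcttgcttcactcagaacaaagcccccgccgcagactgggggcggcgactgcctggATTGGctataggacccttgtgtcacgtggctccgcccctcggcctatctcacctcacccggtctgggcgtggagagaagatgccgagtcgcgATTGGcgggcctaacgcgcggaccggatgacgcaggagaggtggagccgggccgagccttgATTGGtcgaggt
The element stood 137 to 130 bases before the start of Hmgcs1, 162 to 155 bases before that of Srebf2 and 177 to 170 bases before that of Msmo1, each time on the strand of the gene. Hsd17b7 held 3 CCAAT boxes on the other strand and, like all matched members but those 3, no match to the element.

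No difference was detected in the regulators. Srebf1, which encodes SREBP-1, had 2.19, 2.12 and 2.06 with PNP, against 2.25, 2.03 and 2.11 in controls, and the groups overlapped. The difference was -0.0078 (95% interval -0.24 to 0.22, adjusted p = 0.997). Srebf2, which encodes SREBP-2, had 0.17, 0.0066 and -0.10 with PNP, against 0.03, -0.25 and 0.07 in controls. Its highest value was on PNP replicate 1 and its lowest on control replicate 2, and the difference was 0.08 (-0.21 to 0.36, adjusted p = 0.952). Scap, the escort, ran from 1.56 to 1.73 with PNP and from 1.55 to 1.78 in controls, and was the 1 member of those with all 6 values that stood highest on control replicate 2.

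The INSIG genes, whose products retain SCAP, were read less well. Insig1, itself a target of SREBPs, had 1 probe, and the scanner software marked its spot as an outlier on all 3 PNP arrays, so it had no value in the fit. With the marked spots kept it had -1.15, -1.27 and -1.21 with PNP, against -1.31, -0.97 and -0.88 in controls. Control replicates 2 and 3 lay above every PNP value and control replicate 1 below, for a difference of -0.16 (-0.45 to 0.14, adjusted p = 0.918). Insig2 had 3 probes, of which 1 could be used. That probe had 0.82 and 0.68 on PNP replicates 1 and 3, against 0.55, 0.60 and 0.77 in controls. With marked spots kept, a brighter probe stood for Insig2. It had 0.90, 0.78 and 0.91 with PNP, against 1.05, 0.82 and 0.89 in controls. The groups overlapped on both probes, and the difference was positive on the usable probe and negative on the brighter.

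Of the enzymes that build farnesyl diphosphate from acetyl-CoA, 6 of the 6 measured had a positive difference, against 63% of all genes. The differences ran from 0.05 to 0.25, with a median of 0.10, and none passed the test. Those of Pmvk and Idi1 changed sign in some of the alternative settings. Hmgcs1, which makes the precursor of mevalonate, had 3.38 and 3.20 on PNP replicates 1 and 3, against 2.98 and 3.10 on control replicates 2 and 3. The other array of each group held a marked spot. The PNP values lay above the controls, for a difference of 0.25 (-0.08 to 0.57, adjusted p = 0.846). With the marked spots kept, PNP replicate 2 had 3.30 and control replicate 1 had 3.23, so that the groups overlapped, and the difference was 0.19.

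Mvd, the decarboxylase that ends the mevalonate steps, had 1.59, 1.27 and 1.47 with PNP, against 1.35, 1.18 and 1.41 in controls. Its groups overlapped, with a difference of 0.13 (-0.14 to 0.40, adjusted p = 0.930). It was 0.06 without PNP replicate 1 or without control replicate 2, and 0.21 without PNP replicate 2. Fdps, the farnesyl diphosphate synthase, had 3.54 and 3.29 on PNP replicates 1 and 3, against 3.48, 3.00 and 3.14 in controls, a difference of 0.21 (-0.19 to 0.60, adjusted p = 0.917). It was 0.10 without control replicate 2 and 0.34 without control replicate 1. Control replicate 1 lay between both PNP values, and the other controls lay below them.

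The kinases and the isomerase of this arm overlapped between the groups. Pmvk, the phosphomevalonate kinase, had 1.71, 1.60 and 1.65 with PNP, against 1.73, 1.26 and 1.77 in controls. Control replicate 2 thus stood 0.49 below the mean of the other controls, the widest such gap among the members. Mvk, the mevalonate kinase, ran from 2.32 to 2.47 with PNP and from 2.22 to 2.38 in controls. Idi1, the isopentenyl diphosphate isomerase, ran from 2.05 to 2.30 with PNP and from 1.95 to 2.27 in controls. Acat2, which joins acetyl-CoA units, had no probe named here.

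Of the enzymes from squalene to cholesterol, 9 of 11 were measured. The difference was positive for 7 of these 9, against 63% of all genes, and negative for 2. The differences ran from -0.27 to 0.19, with a median of 0.11. Fdft1, the squalene synthase, had 2.53, 2.58 and 2.46 with PNP, against 2.35, 2.22 and 2.43 in controls. All PNP values lay above all controls, PNP replicate 3 and control replicate 3 being the nearest, and the difference was 0.19 (-0.03 to 0.41, adjusted p = 0.811). With the marked spots kept, another and brighter probe stood for Fdft1, the groups overlapped and the difference was 0.13.

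Dhcr7, the reductase of the last step, had -0.0073, -0.22 and 0.02 with PNP, against -0.17, -0.42 and -0.15 in controls. PNP replicates 1 and 3 lay above every control and PNP replicate 2 among them, for a difference of 0.18 (-0.09 to 0.45, adjusted p = 0.878), or 0.09 without control replicate 2. Ebp, a sterol isomerase, had 2.29, 2.06 and 2.25 with PNP, against 2.10, 1.97 and 2.11 in controls, with the same placing of the PNP arrays. Its difference was 0.14 (-0.09 to 0.38, adjusted p = 0.900), and its second probe gave 0.14 as well.

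Hsd17b7, a ketosteroid reductase of sterol synthesis that also acts on sex steroids, stood on the other side. It had 0.58, 0.36 and 0.40 with PNP, against 0.58 and 0.86 on control replicates 2 and 3, where control replicate 1 held a marked spot. The PNP values lay below the controls, although PNP replicate 1 and control replicate 2 nearly met. The difference was -0.27 (-0.59 to 0.04, adjusted p = 0.810), or -0.28 with the marked spot kept, and a second probe gave -0.23 (-0.52 to 0.05).

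Sqle, the squalene epoxidase, had marked spots on PNP replicates 2 and 3 and no value in the fit. With them kept it had 2.17, 2.19 and 2.10 with PNP, against 2.14, 1.78 and 2.16 in controls, a difference of 0.13 (-0.16 to 0.41, adjusted p = 0.935). Control replicate 2 stood apart below the other 5 arrays. Cyp51, the lanosterol demethylase, ran from 2.19 to 2.63 with PNP and from 2.06 to 2.43 in controls. Tm7sf2, a sterol reductase, ran from -0.18 to 0.13 with PNP and from -0.31 to 0.08 in controls. Msmo1, the methylsterol monooxygenase, ran from 2.88 to 3.10 with PNP and from 2.77 to 2.96 in controls. For each of these 3 genes control replicate 2 was the lowest array.

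The rest of this arm overlapped too. Sc5d, a sterol desaturase, ran from 1.47 to 1.56 with PNP and from 1.33 to 1.51 in controls. Lss, the lanosterol synthase, had 1.90 and 1.88 on PNP replicates 2 and 3, against 1.67 and 2.13 on control replicates 2 and 3, so that the controls enclosed the PNP values. Nsdhl, a sterol dehydrogenase, had marked spots on 5 arrays. With marked spots kept it ran from 1.54 to 2.04 with PNP and from 1.69 to 1.98 in controls. Stard4, a carrier of cholesterol between membranes, had 1.87, 1.85 and 1.82 with PNP, against 1.95, 1.61 and 1.93 in controls.

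In fatty acid synthesis, Acly had the smallest p of all members. It encodes ATP citrate lyase, which supplies acetyl-CoA to both pathways. Its probe in the fit had -2.08, -2.08 and -2.17 with PNP, against -2.32, -2.46 and -2.56 in controls. All PNP values lay above all controls, with a difference of 0.34 (0.11 to 0.57, unadjusted p = 0.0089, adjusted p = 0.740). A second and brighter Acly probe, designed on another RefSeq transcript, was marked as an outlier on all 6 arrays. With its spots kept it had 1.47, 1.47 and 1.46 with PNP, against 1.59, 1.37 and 1.05 in controls. There the groups overlapped and control replicate 3 was low, for a difference of 0.13 (-0.19 to 0.45, adjusted p = 0.938).

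Fasn, the fatty acid synthase, had 2.82 and 2.87 on PNP replicates 1 and 2, against 2.86 and 2.74 on control replicates 1 and 3. Its groups overlapped, with a difference of 0.04 (-0.26 to 0.35, adjusted p = 0.970). Acaca, the acetyl-CoA carboxylase that commits carbon to this pathway, ran from 1.81 to 2.06 with PNP and from 1.79 to 2.06 in controls. Elovl6, an elongase, had marked spots on 4 arrays. With them kept it had 0.62, 1.09 and 0.89 with PNP, against 1.24, 0.98 and 1.31 in controls, where PNP replicate 2 lay above control replicate 2. The difference was -0.31 (-0.64 to 0.02, adjusted p = 0.846), the lowest of the 31 members in the fit with marked spots kept.

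The desaturases overlapped between the groups. Scd1, which makes monounsaturated fatty acids, had its spot marked on all 6 arrays. With those kept it had 0.85, 0.42 and 1.32 with PNP, against 0.96, 0.98 and 1.03 in controls. The PNP arrays enclosed the controls, and the difference was -0.13 (-0.59 to 0.33, adjusted p = 0.942). Scd2, its close relative, ran from 2.29 to 2.54 with PNP and from 2.29 to 2.39 in controls. Fads1 and Fads2, of polyunsaturated fatty acid synthesis, ran from 2.03 to 2.48 and from 1.82 to 1.96 with PNP, against 2.04 to 2.17 and 1.74 to 1.88 in controls.

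Separation of the groups was about as frequent among members as among all genes. The PNP values lay wholly above the controls for 3 of 26 members (Hmgcs1, Fdft1 and Acly), against 9.66% of all genes, and wholly below for 1 (Hsd17b7), against 3.75%. In either direction that was 4 of 26 (15.4%), against 13.4%. In 10 members a second probe could be tested, and the sign of its difference matched that of the first in 6 and opposed it in 4 (Mvk, Lss, Tm7sf2 and Fads2).

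More members than not had a higher mean with PNP. Of the arrays left out in turn, control replicate 2 brought this share nearest to that of all genes. The median lay furthest from that of all genes without control replicate 3. The difference was above 0 for 22 of 26 members (84.6%), against 63% of all genes, and the median was 0.07, against 0.04 over all genes. Without control replicate 2 the difference was above 0 for 15 of 24 members (62.5%), against 61.3% of all genes, and the median was 0.02, against 0.04. Without PNP replicate 1 it was above 0 for 16 of 22 members (72.7%), against 54% of all genes, and the median was 0.03, against 0.01. Without control replicate 1 it was above 0 for 22 of 25 members (88%), against 64.4% of all genes, and the median was 0.12, against 0.05. Without control replicate 3 it was above 0 for 20 of 23 members (87%), against 61% of all genes, and the median was 0.14, against 0.03. Leaving out PNP replicate 2 gave 19 of 24 members above 0 (79.2%), against 65.4% of all genes, with medians of 0.09 and 0.07. Leaving out PNP replicate 3 gave 21 of 23 members (91.3%), against 67.1%, with medians of 0.11 and 0.05. When arrays were scaled on their median, 17 of 26 members (65.4%) were above 0, against 44.2% of all genes, and after quantile normalization 18 (69.2%), against 53.7%. With marked spots kept, which adds the 5 members missing from the fit, 22 of 31 (71%) were above 0, against 60.4% of all genes. The median was then 0.07, against 0.03.

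Control replicate 2 was low across the cholesterol genes, a pattern that was picked out after the values were seen and that concerns 1 array within a group. Of the 20 members with a value on every array, 16 (80%) had their lowest value there, against 22.5% of the 11110 such genes. The other 4 were Scap and Acly, lowest on control replicate 3, and Scd2 and Fads1, lowest on PNP replicate 2. The 4 mevalonate enzymes and the 7 enzymes of the sterol steps that had all 6 values were all lowest on control replicate 2, as was Stard4. Its signal lay below the mean of the other controls for 24 of 25 members (96%), against 57.1% of all genes. The median gap was -0.17, against -0.03 over all genes, and Scap was the exception at 0.18. On second probes, 6 of 10 members were lowest on control replicate 2, without a count over all genes to set beside them. The second probes of Lss and Mvk lacked a value on at least 1 array.

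The count depended on the scaling without going away. It was 11 of 20 members (55%), against 13.9% of all genes, when arrays were scaled on their median, and 12 (60%), against 16.1%, after quantile normalization. With marked spots kept it was 21 of 31 (67.7%), against 22.4%. Control replicate 2 had 62.2% of its spots well above background and 7.66% of them marked as outliers, both within the range of the other arrays. The part of array quality or culture in this pattern was not tested.

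**Figure D2:**
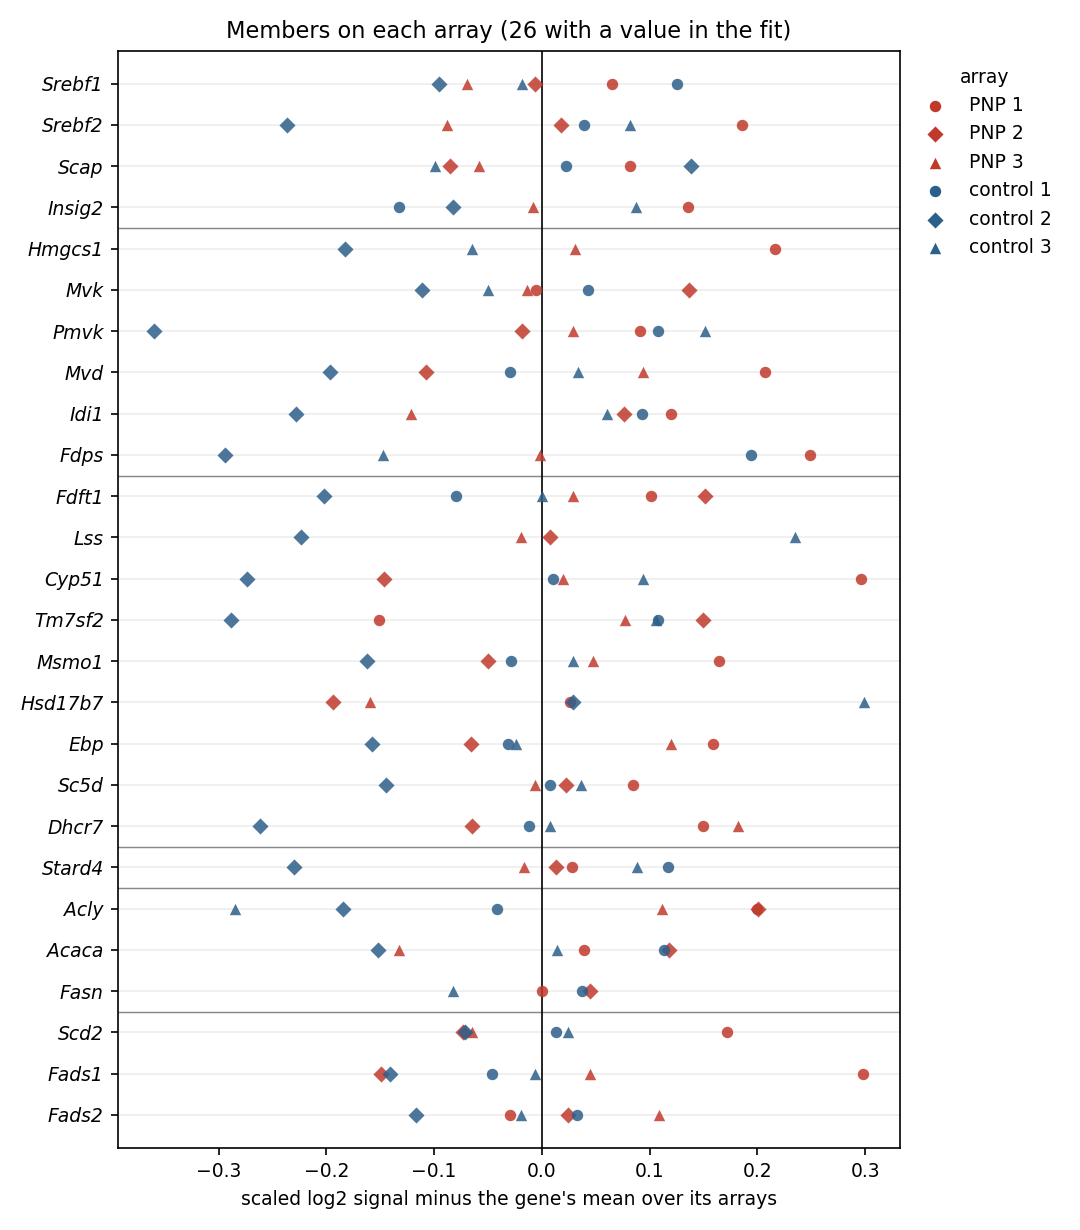
Scaled log2 signal of each member on each array minus the gene's mean over its arrays (x axis), for the 26 members in the fit, in the order of their roles (lines part the roles). Red marks are PNP arrays and blue marks are control arrays, and the blue diamond of control replicate 2 is the leftmost mark in most cholesterol genes.

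PNP replicate 1 stood at the other end. It was the highest array for 9 of the 20 members (45%), against 36.9% of all genes. Only 3 of 25 members (12%) lay below their own mean there, against 32.8% of all genes. The median deviation of the members from their own means was 0.12, 0.0072 and -0.0016 on PNP replicates 1, 2 and 3, against 0.02, -0.18 and 0.02 on control replicates 1, 2 and 3. Over all genes it was 0.08, 0.0015 and 0.0029 with PNP, against 0.01, -0.04 and -0.04 in controls. Set against all genes, control replicate 2 was thus the array on which the members departed most.

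**Figure D3:**
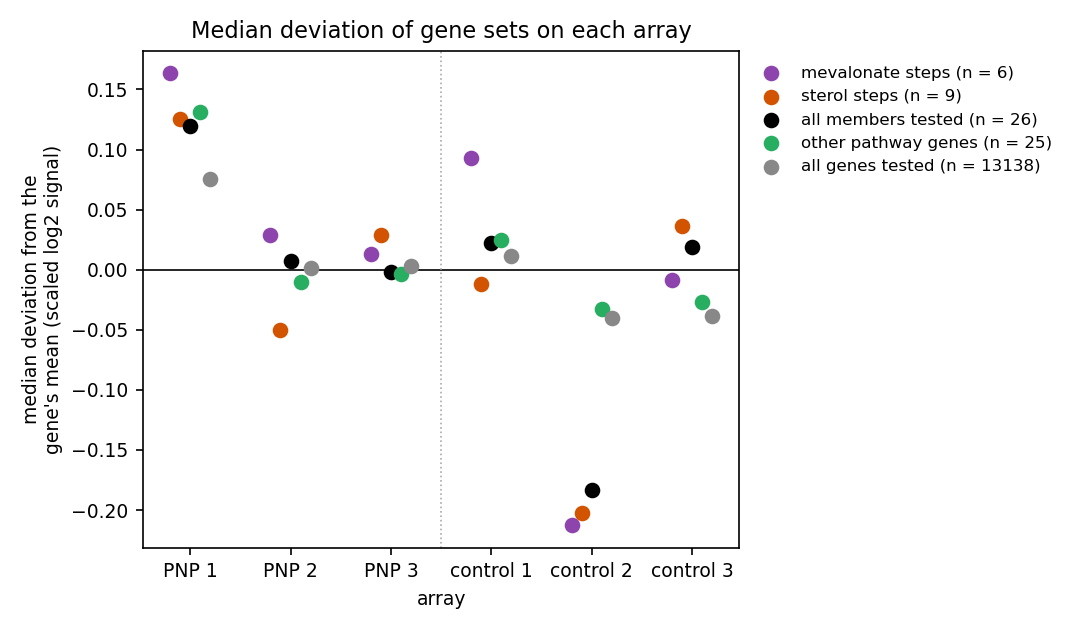
Median deviation from each gene's mean (y axis, scaled log2 signal) on each array (x axis) for the mevalonate steps, the sterol steps, all members, the other genes of the pathway and all genes. The members stand at -0.18 on control replicate 2, where all genes stand at -0.04.

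Arrays also differed by their place on the slide. PNP replicates 1 and 3 and control replicate 2 lay in even slide columns, and PNP replicate 2 and control replicates 1 and 3 in odd ones. Within even columns the members' median difference was 0.25, above 0 for 23 of 25, against 0.08 over all genes. Within odd columns it was -0.05, above 0 for 7 of 23, against 0.0096. The share of all genes above 0 was not counted within columns. Control replicate 2 was the only control in an even column and PNP replicate 2 the only PNP array in an odd one, so each value rests on a single array of 1 group. Slide row was in part confounded with treatment: row 1 held the 3 controls and PNP replicate 1, and row 2 held PNP replicates 2 and 3. With row as a block, which leaves PNP replicate 1 against the controls, the median was 0.18, above 0 for 23 of 25 members (92%), against 0.10 and 68.5% for all genes. That estimate rests on 1 PNP array, so no count of genes passing is given for it here. The parts of row and treatment in the other PNP arrays cannot be told apart. Acly kept its size in both, 0.34 in even and 0.36 in odd columns. Fdft1 had 0.27 and 0.19, and Hsd17b7 had -0.10 and -0.49. For Hsd17b7 control replicate 1 had no value, so its odd value is PNP replicate 2 against control replicate 3 alone. Dhcr7 and Mvd, at 0.43 and 0.35 in even columns, had -0.06 and -0.11 in odd ones.

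**Figure D4:**
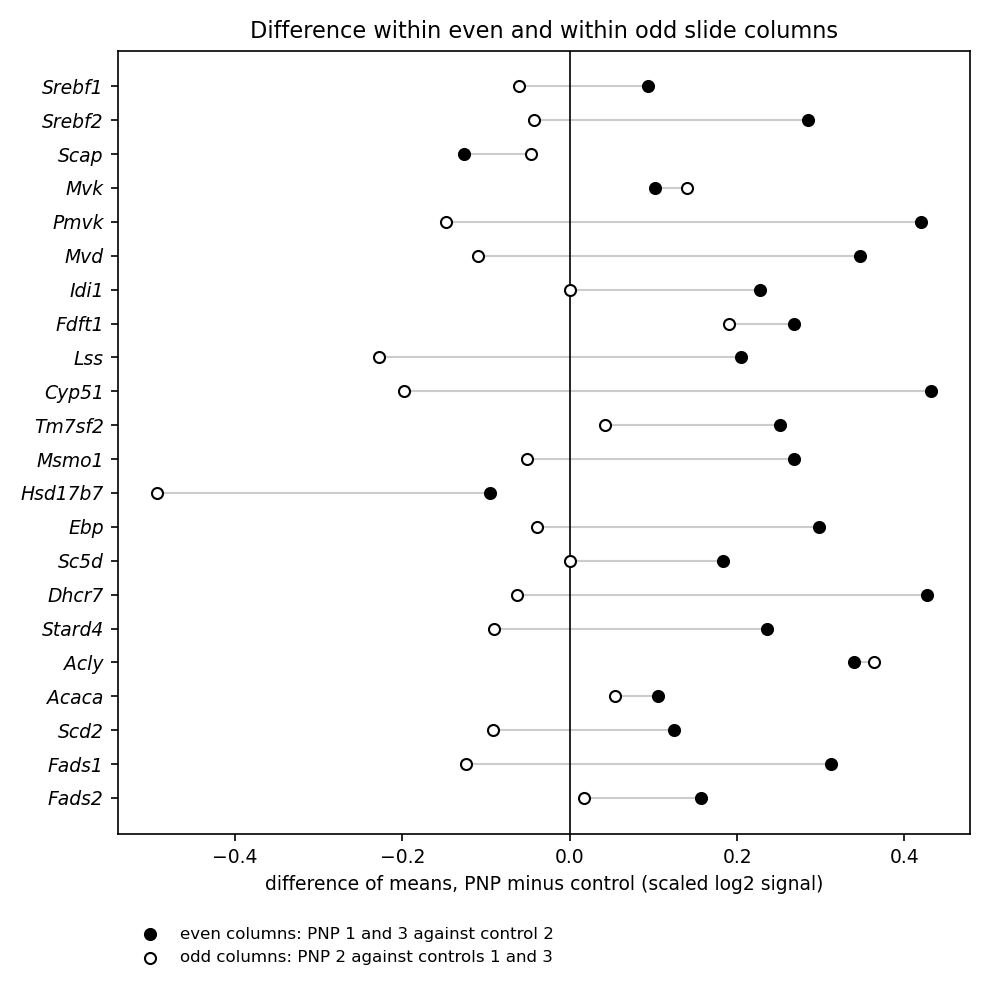
Difference of means between PNP and control (x axis, scaled log2 signal) within even slide columns (filled) and within odd slide columns (open), for the 22 members with a value in both. For Lss and Hsd17b7 the arrays without a value were left out of the means. In even columns 20 of 22 lie above 0, and in odd columns 6 of 22, without a count over all genes to set beside them.

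Other genes of the pathway, from a list that holds enzymes, proteases and regulators outside the members, had no call either. Of 32 listed genes, 30 were well above background on every array, Elovl3 and Mylip were so on none, and 25 were tested. With limma 0 of 25 passed. The difference was positive for 16 and negative for 9, where 63% of all genes were positive. The median was 0.06, against 0.04 over all genes. Nr1h3, which encodes the oxysterol receptor LXR alpha, an activator of Srebf1, had -3.93, -3.75 and -3.92 with PNP, against -4.05, -4.26 and -4.24 in controls. Its groups did not overlap, and the difference was 0.32 (SE 0.10, adjusted p = 0.740). It was 0.12 without PNP replicate 2, 0.10 with normexp background and 0.13 with the mean of all tested probes. Mlxipl, which encodes the glucose-responsive factor ChREBP, had 1.23, 1.27 and 1.29 with PNP, against 1.12, 0.98 and 0.98 in controls, again without overlap, and the difference was 0.24 (SE 0.09, adjusted p = 0.740).

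On the lower side of this list Fads3 had 1.92, 1.98 and 1.94 with PNP, against 2.02, 1.95 and 2.06 in controls, and the groups overlapped. Elovl5, an elongase of polyunsaturated fatty acids, had 2.28, 1.80 and 1.88 with PNP, against 2.05, 2.07 and 2.00 in controls, so that PNP replicate 1 lay above and the other PNP arrays below the controls. Their differences were -0.06 and -0.05. Of the 21 such genes with a value on every array, 7 (33.3%) were lowest on control replicate 2, against the 16 of 20 members and 22.5% of all genes. The difference between these shares was not tested.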

How the data were processed

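RNA of 3 PNP and 3 control samples was measured on 1-channel arrays. The deposited scanner files hold intensity values, made with Agilent Feature Extraction 11.5.1.1 per the file headers (10.7 in the submitters' processing notes). The processed signal comes without scaling between arrays. Cy3 is the dye per the labels, but the files carry red-channel columns, and this was not settled. The authors' deposited table holds log2 values: each column followed its own array most closely (r of at least 0.9996), each had a median of 8.27, and the sorted columns were nearly identical, as after quantile normalization. The sources used here give no account of its making.

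Signals were taken to log2 and the 75th percentile of the array was subtracted. Spots that the software marked as outliers, within the spot or among its replicates, were dropped (6.53% to 13.2% of spots on an array), and spots of a probe averaged. Testing required a signal well above background on the 3 arrays of either group and 2 values kept per group. Outlier spots removed 13 of 49 member probes above background (26.5%) and 6114 of 33336 such probes on the array (18.3%). Genes were named through accessions in RefSeq's list for GRCm38.p6, and each was represented by its brightest tested probe. Of 13138 genes, 2028 lacked a value on at least 1 array. Differences were fitted with limma 3.58.1 in R 4.3.3 (lmFit and eBayes, no covariates, two-sided, adjusted over all genes, threshold 0.05), and the fit was tested on simulated data. A difference was given gene by gene for the 8 members of smallest p and for Srebf1, Srebf2, Insig1, Hmgcs1, Sqle, Fasn and Scd1, and for the 2 other pathway genes of smallest p in each direction. Elovl6 was added for its low value with marked spots kept. Values with marked spots kept come from a fit of their own over all genes. The members and lists were chosen with earlier results of these data known. The alternatives were other scalings, background corrections, filters, probes and blocks, and leaving out each array. The files hold no mean spot signal, so the normexp alternative used the median spot signal in its place.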

Additional observations from a re-analysis of the deposited data

How the results depend on the processing

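No member passed the threshold under any alternative tried, where the smallest adjusted p of a member was 0.289, for Acly without PNP replicate 2. The count of all genes past the threshold was 0 in the main setting and 1 (the predicted gene Gm27166, no member) with slide column as a block, and it ranged from 0 to 23 when 1 array was left out, with 23 without PNP replicate 1, 1 without PNP replicate 2, 2 without control replicate 1, 6 without control replicate 2 and 5 without control replicate 3. None of these genes was a member. The members' median difference ranged from 0.02 to 0.14 when 1 array was left out, and was 0.01 with arrays scaled on their median, 0.11 with normexp background and 0.12 with slide column as a block. These moved it by less than 0.10, the spread (pooled SD) of the members' array medians within a group, and slide row as a block, an alternative chosen after seeing the data, moved it further, to 0.18. Differences near 0 changed sign. Fasn was -0.050 after quantile normalization, -0.048 in the authors' deposited normalized values and -0.037 with the replicate block. Srebf1 was 0.040 with normexp background and 0.016 with slide column and 0.061 with slide row as a block, and ranged from -0.058 to 0.053 when 1 array was left out. Srebf2 ranged, with 1 array left out, from -0.022 (without control replicate 2) to 0.14. Elovl5 was 0.082 with the mean of all tested probes and 0.24 with slide row as a block, and with 1 array left out ranged from -0.20 to 0.039 (without PNP replicate 2). The other differences given gene by gene kept their sign in the alternatives that gave a value, but their size varied. Over all of these Hmgcs1 ran from 0.08 to 0.34, Mvd from 0.06 to 0.27, Fdps from 0.07 to 0.42 and Fdft1 from 0.13 to 0.24. Hsd17b7 ran from -0.46 to -0.14, Ebp from 0.08 to 0.23, Dhcr7 from 0.09 to 0.25 and Acly from 0.13 to 0.40. Among members given by their levels alone, Scap, Insig2, Pmvk, Idi1, Lss, Cyp51, Tm7sf2, Stard4, Acaca, Scd2 and Fads2 changed sign in some setting. Mvk, Msmo1, Sc5d and Fads1 did not. Nr1h3 was as low as 0.10 (normexp background), and Sqle was 0.07 with arrays scaled on their median. The correlation over genes of same-numbered samples' deviations from their group means was -0.31, -0.22 and -0.03. Same-numbered samples lay in opposite kinds of slide column, so these values cannot decide whether replicate numbers paired the samples. Between samples in the same kind of column it was 0.24 and 0.04 for PNP replicates 1 and 3 with control replicate 2. For PNP replicate 2 it was 0.27 with control replicate 1 and 0.0078 with control replicate 3. With the replicate block 0 genes passed, 605 had an unadjusted p below 0.05, and the members' median difference stayed at 0.07. With 3 arrays a group precision is limited: the median half-width of a member's 95% interval was 0.27.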
